A study of Mus musculus with 18 samples.

Results

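Transcripts of 5 genes that take part in thyrotropin (TSH) signalling or in the handling of thyroid hormone were compared between 3 mouse fat depots. The genes were Tshr, Slc16a10, Dio1, Dio3 and Thrsp, which were taken by symbol from the 52093 symbols in the RNA-seq files. Each gene was read from its merged row, which joins the exons of all its transcripts, in inguinal white fat (iWAT) and brown fat (BAT). In epididymal white fat (eWAT), whose files count transcripts one by one, the transcript with the most reads over the samples was used, and for Tshr each transcript was also read on its own. All 18 samples came from wild type male C57BL/6J mice aged 16 weeks that were fed regular chow, with 6 samples per depot. The iWAT and eWAT samples were mature adipocytes that were released with collagenase and collected as a floating layer, whereas the BAT samples were tissue that had been frozen in liquid nitrogen, so that the preparation and the depot cannot be told apart in any comparison with BAT. The study used these data to list the Gs-coupled receptors of adipocytes. Samples are named here by the number in their titles, which was read as the number of a mouse. The labels do not say that samples with 1 number came from 1 animal.

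TSH is secreted by the pituitary and acts on the thyroid follicle through the TSH receptor, a G protein-coupled receptor that raises cAMP through Gs. The receptor is also known from adipocytes, where cAMP drives lipolysis. The thyroid releases mostly the prohormone T4. Cells take up T4 and its active form T3 through transporters, deiodinases add to or remove from the local pool of T3 by taking iodine off the hormone, and T3 binds nuclear receptors that sit on DNA together with retinoid X receptors. In brown fat, T4 is turned into T3 within the cell by the type 2 deiodinase, and T3 raises the expression of genes for lipogenesis and heat production.

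The promoter windows of Thrsp and Slc16a10 are shown because these 2 members lay on opposite sides of BAT in the white depots. Each window holds 250 bases before and 50 bases after the annotated start, 5′ to 3′, as RefSeq gives it on GRCm38.p6, and capitals mark the pentamer CCAAT or its reverse complement. The Thrsp window lies on the minus strand at chr7:97417501-97417800, and the Slc16a10 window on the minus strand at chr10:40142205-40142504.
Thrsp: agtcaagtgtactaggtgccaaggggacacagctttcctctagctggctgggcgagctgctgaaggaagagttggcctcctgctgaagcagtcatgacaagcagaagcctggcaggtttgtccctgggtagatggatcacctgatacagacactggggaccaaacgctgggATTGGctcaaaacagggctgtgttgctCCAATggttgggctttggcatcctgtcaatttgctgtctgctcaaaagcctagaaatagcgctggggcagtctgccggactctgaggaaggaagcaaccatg
Slc16a10: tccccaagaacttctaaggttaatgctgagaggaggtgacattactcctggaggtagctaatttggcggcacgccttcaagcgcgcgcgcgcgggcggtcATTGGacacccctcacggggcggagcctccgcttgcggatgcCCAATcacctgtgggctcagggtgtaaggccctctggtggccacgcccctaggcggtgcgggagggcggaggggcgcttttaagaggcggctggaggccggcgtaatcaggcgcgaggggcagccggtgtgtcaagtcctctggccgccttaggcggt
Both windows held 2 such pentamers, which began 79 and 52 bases upstream of the start in Thrsp and 150 and 108 bases upstream in Slc16a10. Of 32851 promoters of the same length, 37.4% held at least 1 on either strand and 11.7% at least 2. The pentamer was looked for after the letters had been seen. The half-site AGGTCA, which T3 receptors bind, was in neither window on either strand, and it was in 16.3% of all promoters. Its direct repeats with 4 or 1 bases in between, searched on both strands, were in none of the 4 member windows and in 0.0152% and 0.0396% of all promoters. Sites outside the windows, or with other letters, were not looked for. The windows of Dio1 and Dio3 were searched too, and Dio3 held 2 CCAAT pentamers and Dio1 none. Tshr had no entry in the promoter table.

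The reads behind the RPKM (the read count divided by row length and by the total of reads) numbered 22929576 to 34512470 per sample. Markers of the fat cell (Adipoq, Plin1, Lep, Cidec) summed to an RPKM of 3091 to 4799 in iWAT, 2639 to 5906 in eWAT and 721 to 938 in BAT. The 5 markers of fibroblasts and adipocyte progenitors summed to 471 to 746 (iWAT), 172 to 263 (eWAT) and 31.9 to 45.8 (BAT), so that the depots did not overlap. Both sums were lowest in BAT, as were Tshr and Slc16a10, and their part in the results below was not tested. Brown fat markers (Ucp1, Cidea, Cox8b, Elovl3) summed to 76.1 to 121 in iWAT, 11.2 to 24.1 in eWAT and 2708 to 3358 in BAT. Some samples stood apart from the rest of their depot. The 5 macrophage markers summed to an RPKM of 1778 in eWAT of mouse 15 and to 118 to 426 in the other 5 eWAT samples, 21.8 to 115 in iWAT and 19.6 to 47.5 in BAT, and the fat cell markers were lowest there. Epididymis markers summed to 75.1 in eWAT of mouse 14, to 70.2 in that of mouse 15 and to at most 4.07 in the others, and skeletal muscle markers summed to 1340.1 in BAT of mouse 12 and to at most 118.8 in the other BAT samples. No call of a member in a comparison with BAT was lost when any 1 sample was left out. Of the 6 thyroid follicle markers, none reached an RPKM of 1 in any sample, Nkx2-1 and Foxe1 were at 0 reads in all 18, and their sum was at most 0.0595 in iWAT, 0.429 in eWAT and 0.0547 in BAT. Because these are bulk samples, fewer cells of a type and less RNA per cell cannot be told apart.

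Tshr encodes the TSH receptor. Its transcript was abundant in both white depots and low in BAT. Its merged row covers chr12:92639433-92779186 on the plus strand (mm9) and counts 5113 bases. The RPKM of Tshr in iWAT was lowest at 27.5 and highest at 43.0, with a median of 32.7 and a mean of 34.2 ± 5.77 (SD, n = 6). In eWAT it was between 21.8 and 49.0, with a median of 41.8 and a mean of 39.5 ± 10.1 (SD, n = 6). In BAT it was between 1.49 and 3.26, with a median of 2.45 and a mean of 2.40 ± 0.665 (SD, n = 6). No BAT sample reached the lowest sample of either white depot. Behind these values stand 4102 to 5320 reads in each iWAT sample, 3083 to 6936 in each eWAT sample and 203 to 576 in each BAT sample.

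**Figure D1:**
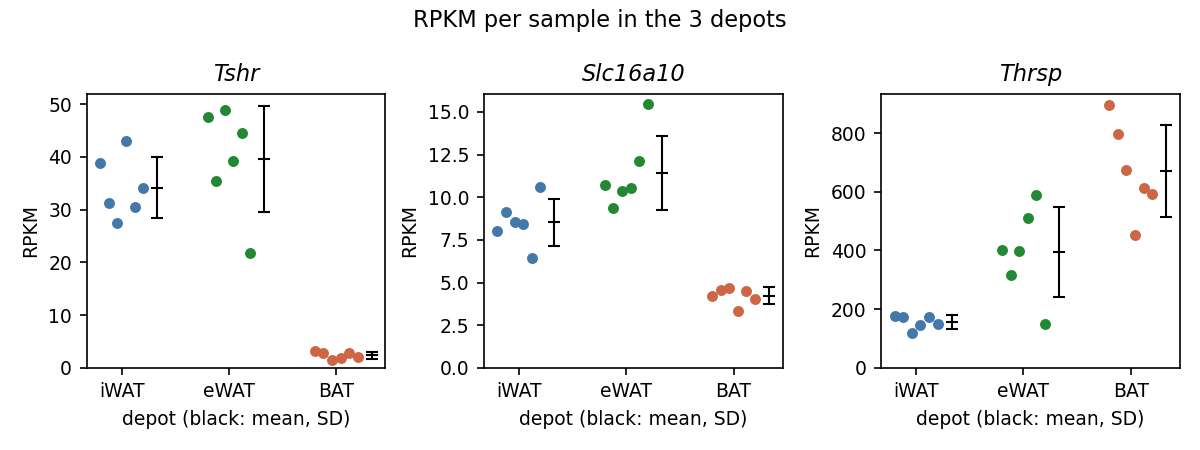
RPKM of Tshr, Slc16a10 and Thrsp in the 6 samples of each depot (points, ordered by mouse number), with the mean and SD beside them in black. For Tshr and Slc16a10 all BAT points lie below all white fat points, while for Thrsp the iWAT points, at 118 to 178, lie below all BAT points, at 453 to 896.

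Tshr in iWAT exceeded its BAT level 11.9-fold (on the log2 scale 3.57, SE 0.20, adjusted p = 2.2e-09, edgeR quasi-likelihood test). Its log2 fold change of eWAT over BAT was 3.81 (SE 0.22, adjusted p = 1.6e-11, edgeR). Between the white depots Tshr did not pass the threshold, with a log2 fold change of iWAT over eWAT of -0.15 (SE 0.20, approximate 95% interval -0.54 to 0.24, adjusted p = 0.567, edgeR). The interval does not show that the depots have the same level, and the sign turned to 0.096 when row lengths were left out of the model. In the order of the depots, then, eWAT and iWAT were not separated beyond their spread, and BAT stood below both.

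Of the 3 members with enough reads for a test, 2 (Tshr, Slc16a10) were higher and 1 (Thrsp) was lower in iWAT than in BAT. Among all 19733 rows tested, 34.0% were higher and 33.6% lower in iWAT, that is 6711 and 6626 rows, and with library size alone in place of TMM factors 9107 were higher and 4732 lower. The limma fit on log2(RPKM + 0.1) gave 9086 higher and 4856 lower, and the median log2 fold change of all rows, 0.01 in the edgeR fit, was 0.27 with library size alone and 0.24 in the limma fit. The members had the same direction and passed the threshold under each of these scalings.

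The same 3 members were called, in the same directions, in eWAT against BAT. There 56.5% of the 18381 symbols tested were higher and 21.3% lower in eWAT, or 10391 and 3908 symbols, and the median log2 fold change of all symbols was 0.59. These comparisons set a transcript (eWAT) against a merged row (iWAT, BAT), with the row length in the model, and the kind of file and the depot cannot be told apart in them. Without the length, the median was 0.15 and the calls were 7378 higher and 5699 lower, and over the rows that both kinds of file share the calls were 2021 higher and 1867 lower. For iWAT against eWAT, 6.30% of the symbols were higher and 44.5% lower in iWAT with the length in the model (1158 and 8171, median -0.35). Without it 2790 were higher and 1951 lower (median 0.04), and over shared rows 372 and 365. None of the 3 members has a shared row. Relative to the median of all symbols, the log2 fold change of Tshr in eWAT over BAT was 3.22 with the length and 3.42 without it.

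**Figure D2:**
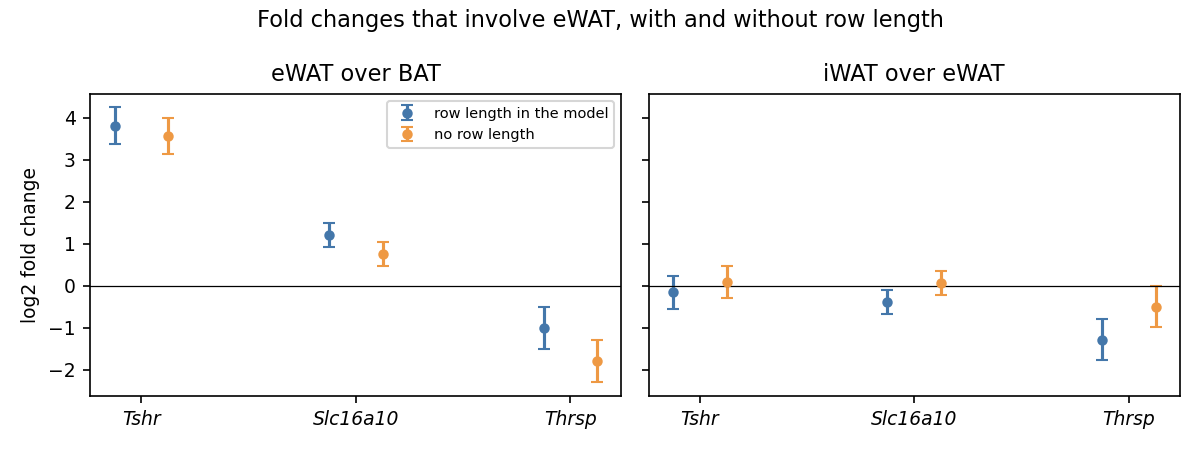
Log2 fold changes of 3 members in eWAT over BAT (left) and iWAT over eWAT (right), from the model with the row length (blue) and without it (orange), with approximate 95% intervals. On the left each gene keeps its direction, whereas on the right Tshr and Slc16a10 change sign and the Thrsp value moves from -1.28 to -0.50.

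The 7 transcripts of Tshr in the eWAT files show which form of the receptor was read. In the GENCODE vM1 annotation of the same build, the model Tshr-202 has 10 exons, 4312 bases and a coding length of 2292 bases for 764 amino acids. The model Tshr-201 shares its first 8 exons (784 bases) and then ends in an alternative last exon at chr12:92760420-92760981, with 735 coding bases for 245 amino acids. The long model's last exon, at chr12:92775611-92778949, holds the code for the membrane-spanning part of the receptor, so the short form lacks it. The files list the long form as NM_011648 and the short form as NM_001113404.

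NM_011648 had 3083 to 6936 reads per eWAT sample and NM_001113404 438 to 838, which was 12.1% to 14.4% of the former. A read in a shared exon counts for both, so these rows are not independent and no test was made. Rows that are nested in one another separate the ends. The 415 bases that NM_001113404 has beyond the row AK021020, of which 408 lie at the 3′ end of the alternative last exon, had 11 to 36 reads per sample and an RPKM of 2.06 on average (SD 0.80, n = 6). The 1297 bases that NM_011648 has beyond AK014519, nearly all at the 3′ end of the long form's last exon, had 503 to 1003 reads and an RPKM of 19.4 on average (SD 4.28, n = 6). The 249 bases by which AK014519 exceeds AK029084 reached an RPKM of 41.6 on average (SD 12.3, n = 6). Of these, 215 lie next upstream in the last exon and 34 at the 5′ end of the transcript. A short form that ends where AK021020 does gives no reads in the stretch of the alternative last exon, so that stretch does not measure all short forms. In each of the 6 samples the stretch of the alternative last exon was the lowest of the 3. Its highest RPKM was 3.08, and the lowest RPKM of the stretch of 1297 bases was 11.8.

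**Figure D3:**
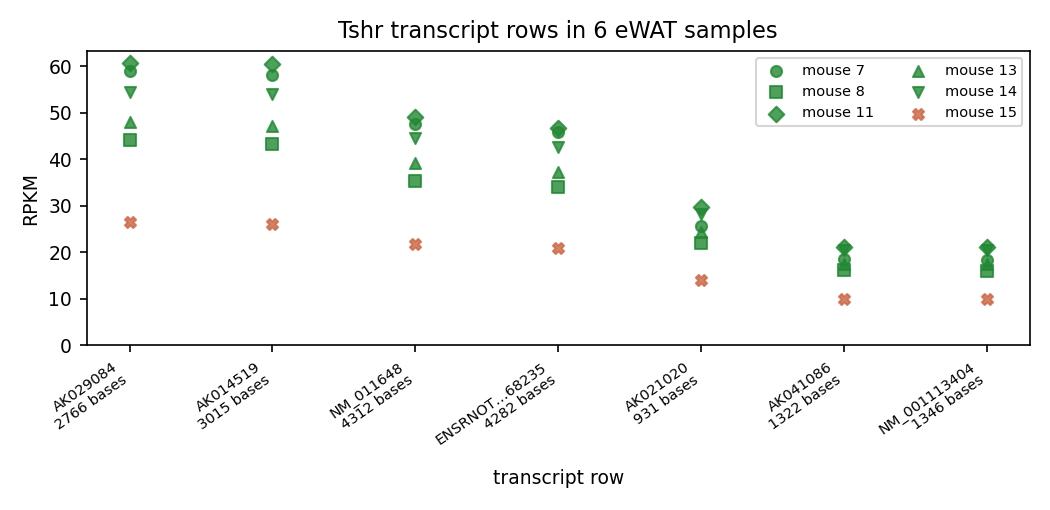
RPKM of the 7 Tshr transcript rows in the 6 eWAT samples (one marker per mouse, mouse 15 in orange), with row lengths in bases. The 4 long rows on the left have mean RPKM values of 37.9 to 48.8, the 3 short rows on the right 17.2 to 24.0, and mouse 15 is the lowest in every row.

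In eWAT of mouse 15, Tshr was at 21.8, against 35.4 to 49.0 in the other eWAT samples. This is the sample with the highest macrophage sum and the lowest fat cell sum, and their part in the Tshr value was not tested. Without it the log2 fold change of eWAT over BAT was 3.93, and without mice 14 and 15 together it was 3.91.

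The relatives and ligands of the receptor had few or no reads. Of the 7 genes in the list of TSH receptor family and ligands, Tshr alone had enough reads for a test. Fshr, the receptor of follicle-stimulating hormone, and Cga, the alpha subunit that TSH shares with the gonadotropins, had 0 reads in all 18 samples. Lhcgr, the luteinizing hormone receptor, had at most 10 reads in a sample. The thyrostimulin subunits Gpha2 and Gphb5 had at most 2, and Tshb, the beta subunit of TSH, had a mean of depot means of 0.0152 RPKM. For comparison, the mean of depot means of Tshr was 25.4 RPKM.

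The genes whose profile over the 18 samples lay closest to that of Tshr were Gnai1, Trhde, 1700023L04Rik, Lrrc3 and Cbs, out of 13867 compared. Likeness was the mean absolute difference of centred log2(RPKM + 0.1) values, which was 0.22 for Gnai1 and 0.27 for Cbs. Mean RPKM values of Gnai1, an inhibitory G protein alpha subunit, were 129 (iWAT), 142 (eWAT) and 10.9 (BAT). Trhde, which degrades thyrotropin-releasing hormone, had means of 1.75, 2.66 and 0.0260. The BAT means of Trhde, 1700023L04Rik (0.0807), Lrrc3 (0.0848) and Cbs (0.0173) lay below the 0.1 that was added before the logarithm. That addition shrinks their difference between white fat and BAT, and their likeness to Tshr depends on it. These points share libraries and depth, and the likeness is a description only.

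Slc16a10 encodes MCT10, a transporter of aromatic amino acids that also carries T3 and T4. It was higher in both white depots than in BAT, with a smaller fold change than Tshr. Its merged row covers chr10:39753258-39862064 on the minus strand and counts 7393 bases, and the most-read eWAT transcript, NM_001114332, has 5394. The RPKM in iWAT was 6.45 to 10.6 with a median of 8.48 and a mean of 8.52 ± 1.36 (SD, n = 6). In eWAT it was 9.37 to 15.5 with a median of 10.6 and a mean of 11.4 ± 2.17 (SD, n = 6), and in BAT 3.31 to 4.67 with a median of 4.35 and a mean of 4.22 ± 0.506 (SD, n = 6). The BAT samples did not overlap with those of the white depots, while iWAT and eWAT overlapped.

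Slc16a10 in iWAT exceeded its BAT level 1.67-fold (on the log2 scale 0.74, SE 0.13, adjusted p = 0.00014, edgeR), a difference below a 2-fold minimum. The log2 fold change of eWAT over BAT was 1.22 (SE 0.15, adjusted p = 4.4e-07, edgeR), 0.76 without the row length, and 0.63 and 0.62 in the same order when taken relative to the median of all symbols. For iWAT over eWAT the value was -0.39 (SE 0.15, approximate 95% interval -0.67 to -0.10, adjusted p = 0.0326, edgeR), close to the median of all symbols of -0.35, and without the row length it was 0.067 (SE 0.15). This call lay close to the threshold and was kept in 7 of the 12 fits with 1 sample left out. It was lost without eWAT of mouse 15 (-0.26, adjusted p = 0.0992, edgeR), without eWAT of mouse 14 (-0.37, adjusted p = 0.0575, edgeR), and without iWAT of mouse 12 (-0.37, adjusted p = 0.0625, edgeR), mouse 13 (-0.39, adjusted p = 0.0505, edgeR) or mouse 14 (-0.33, adjusted p = 0.0724, edgeR). The eWAT sample of mouse 15 had the highest Slc16a10 value of its depot, 15.5 against 9.37 to 12.1. The next, 12.1, was that of mouse 14. These are the eWAT samples with epididymis sums of 70.2 and 75.1, and mouse 15 also had the macrophage sum of 1778. Without both the value was -0.20 (adjusted p = 0.242, edgeR), and the part of these sums in it was not tested. A shorter transcript row of 3 exons, NM_028247, had 407 to 664 reads in eWAT, against 1624 to 2735 for NM_001114332. A row on the other strand that overlaps the gene, AK157940, had at most 14 reads in any iWAT or BAT sample.

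Slc16a10 was compared with other transporter genes. Of the 7 reported, 3 (Slc16a10, Slc3a2, Slc7a8) had 10 or more reads in every iWAT and BAT sample, and these 3 were higher in iWAT, with a median log2 fold change of 1.61. Of all 16160 rows with that many reads, 35.7% were higher and 31.0% lower, and the median was 0.05. Slc3a2, the heavy chain that brings LAT transporters to the membrane, had an RPKM of 21.7 to 25.4 in iWAT, 36.0 to 59.9 in eWAT and 4.34 to 11.9 in BAT. Slc7a8, the light chain LAT2, was at 3.30 to 5.94 in iWAT, 6.18 to 16.3 in eWAT and 0.207 to 0.519 in BAT. Their iWAT-to-BAT log2 fold changes were 1.61 (SE 0.18, adjusted p = 1.9e-06, edgeR) and 3.50 (SE 0.20, adjusted p = 3.0e-09, edgeR). Slc7a5, the light chain LAT1, was lower in level, with an RPKM of 0.372 to 0.760 in iWAT, 1.30 to 4.17 in eWAT and 0.0183 to 0.115 in BAT. It had 30 to 85 reads per iWAT sample and 2 to 12 per BAT sample and met the filter on low counts through white fat alone, so no test against BAT is given for it. In eWAT against BAT the same 3 genes were higher, with and without the row length. With the length, 60.5% of the 14500 symbols with that many reads in both depots were higher in eWAT and 17.9% lower.

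**Figure D4:**
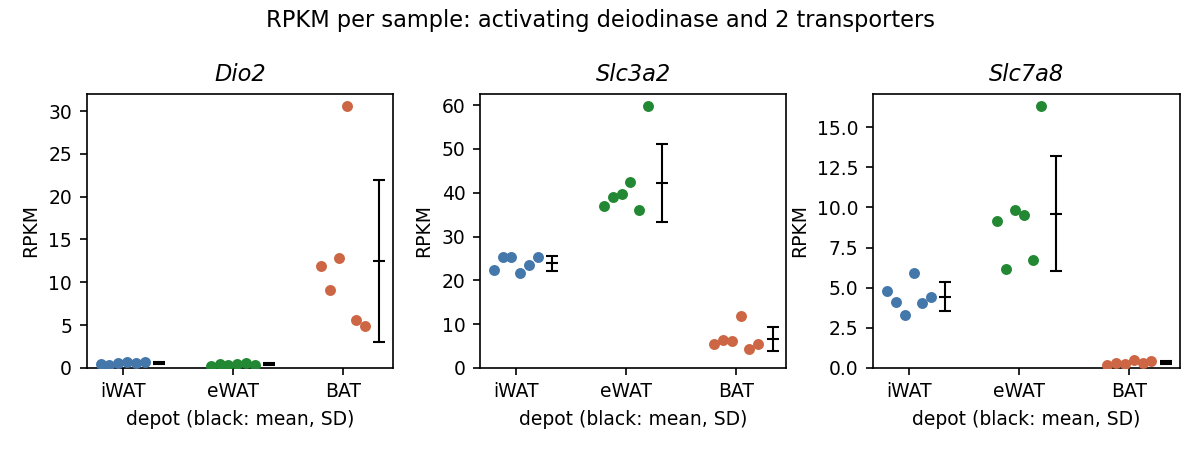
RPKM of Dio2, Slc3a2 and Slc7a8 in the 6 samples of each depot (points, ordered by mouse number), with the mean and SD in black. Dio2 is highest in BAT, Slc3a2 and Slc7a8 are lowest there, and the Dio2 value of 30.5 belongs to BAT of mouse 11.

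Dio1 and Dio3 encode the other 2 deiodinases. Type 1 deiodinase, known from liver, kidney and thyroid, can activate or inactivate the hormone, and type 3 inactivates T4 and T3. Neither had enough reads for a test in any comparison. Dio1 (chr4:106964070-106979774, minus strand) had 0 reads in all 12 iWAT and BAT samples, which allows an RPKM of up to 0.0474 to 0.0664 per iWAT sample and 0.0441 to 0.0570 per BAT sample, the values of 3 reads. In eWAT its most-read transcript had 4 reads in all, at most 2 in a sample. Dio3 (chr12:111517440-111519307, plus strand, a single exon of 1868 bases) had 5 reads over the 6 iWAT samples, of which 4 were in mouse 11. It had 1 read in BAT, in mouse 11, and 10 reads in eWAT, of which 5 were in mouse 15. No difference between the depots was tested for either gene.

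The type 2 deiodinase, Dio2, makes T3 from T4 and was read beside them. Its RPKM was 0.343 to 0.690 in iWAT, 0.228 to 0.575 in eWAT and 4.84 to 30.5 in BAT, with a median of 10.5. Against BAT it was lower in iWAT, with a log2 fold change of -4.76 (SE 0.42, adjusted p = 2.3e-07, edgeR) and in eWAT, with one of -5.13 (SE 0.40, adjusted p = 8.1e-10, edgeR), and its row is the same in both kinds of file. Of the 7 genes for deiodinases, selenoprotein synthesis and cytosolic T3 binding, 4 had enough reads, and 1 was higher, 1 lower and 2 not called in iWAT against BAT, 2 of 4 called where 35.7% of rows were higher and 31.0% lower. Eefsec, the elongation factor for selenocysteine, was higher in iWAT (1.01, SE 0.12, adjusted p = 4.8e-06, edgeR). Sepsecs, which makes selenocysteine on its tRNA, was at 0.10 (SE 0.11, adjusted p = 0.461, edgeR), and Secisbp2, which binds the selenocysteine insertion element, was at -0.21 (SE 0.11, adjusted p = 0.0955, edgeR).

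Dio3 lies at the end of the imprinted Dlk1-Dio3 cluster on chromosome 12. Of the 6 listed genes of that cluster, 2 had 10 or more reads in every iWAT and BAT sample, the non-coding RNAs Meg3 and Rian, and both were lower in iWAT than in BAT, with log2 fold changes of -3.80 (SE 0.32) and -3.03 (SE 0.30). Among all 16160 rows with that many reads, 31.0% were lower and 35.7% higher in iWAT. The protein gene Dlk1 had 3 to 14 reads per iWAT sample and 16 to 85 per BAT sample, and since it met the filter through BAT alone no test is given for it. Meg3 had median RPKM values of 0.0901 (iWAT), 0.106 (eWAT) and 1.05 (BAT). Mirg had at most 21 reads in a sample and was not tested.

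All 12 listed receptors and coregulators that T3 acts through had enough reads for a test. In iWAT against BAT, 5 were higher, 2 lower and 5 not called, with a median log2 fold change of 0.10, and the 7 of 12 called were not more than the 35.7% higher and 31.0% lower over all rows with enough reads in both depots. Thra, the T3 receptor alpha gene, was at 13.6 to 16.7 in iWAT, 10.9 to 21.0 in eWAT and 8.05 to 12.3 in BAT, with an iWAT-to-BAT log2 fold change of 0.18 (SE 0.09, adjusted p = 0.088, edgeR). Its eWAT value depended on how it was counted, at 0.45 over BAT with the row length and -0.86 without it, both past the threshold (adjusted p = 0.0028 and 5.7e-06, edgeR). The merged Thra row overlaps a joint row of Thra and Nr1d1, a neighbour transcribed from the other strand, and the kit does not mark strand, so reads of the 2 genes cannot be told apart where they overlap. Rxra, a retinoid X receptor that pairs with T3 receptors, was higher in iWAT than in BAT (1.48, SE 0.08, adjusted p = 2.4e-09, edgeR) and also in eWAT against BAT (1.82, SE 0.11, adjusted p = 3.9e-11, edgeR). The retinoid X receptor Rxrb went the other way and was lower in both white depots than in BAT. Rxrg was not called in iWAT against BAT, and in eWAT against BAT it was called, as lower, only without the row length. The corepressor Ncor1 was higher in iWAT than in BAT (0.97, SE 0.10, adjusted p = 1.6e-06, edgeR), and its partner deacetylase Hdac3 was at 0.00 (SE 0.07, adjusted p = 0.982, edgeR).

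Thrsp, also called Spot 14, is a small nuclear protein that rises with T3, carbohydrate feeding and lipogenesis. It was the most abundant member in every sample and, unlike Tshr and Slc16a10, it was highest in BAT. In iWAT its RPKM was 118 to 178 with a median of 161 and a mean of 156 ± 23.2 (SD, n = 6). In eWAT it was 151 to 591 with a median of 400.5 and a mean of 395 ± 153 (SD, n = 6). BAT samples had 453 to 896 with a median of 642 and a mean of 670.4 ± 157 (SD, n = 6). The iWAT samples lay below all BAT samples, whereas eWAT overlapped with both of the other depots.

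Thrsp in iWAT was 5.18-fold below its BAT level (on the log2 scale -2.37, SE 0.19, adjusted p = 7.3e-08, edgeR). In eWAT over BAT it was at -1.005 (SE 0.25, adjusted p = 0.0013, edgeR) with the row length and at -1.78 (SE 0.26, adjusted p = 5.6e-06, edgeR) without it. In iWAT over eWAT it was at -1.28 (SE 0.25, adjusted p = 0.0003, edgeR) with the row length, and at -0.50 (SE 0.25, adjusted p = 0.153, edgeR) without it. The rows behind these values differ. The merged row (chr7:104561448-104566240, minus strand) counts 2189 bases, 912 more than the 2-exon transcript ENSMUST00000043077 of 1277 bases that was used for eWAT. Among the 4 eWAT transcripts of the gene, the single-exon row AK050300 runs into the intron, and it had a mean RPKM of 169 where the spliced rows had 395 to 475. The eWAT sample of mouse 15 was the lowest of its depot, at 151 against 317 to 591, and the BAT sample of mouse 11 was the lowest of its own, at 453 against 593 to 896.

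Of the 9 genes listed as responsive to T3, with the Thrsp paralogue Mid1ip1 among them, 5 were lower, 2 higher and 2 not called in iWAT against BAT, and the median log2 fold change was -2.04, where 31.0% of all rows with enough reads in both depots were lower and 35.7% higher. The lower genes were Thrsp, Gpd2, Fasn, Acaca and Acly, which apart from Thrsp and Gpd2 encode enzymes of fatty acid synthesis, and the higher ones were Klf9 and Hr. Fasn, the fatty acid synthase, was at 223 to 675 in iWAT, 122 to 512 in eWAT and 1076 to 2112 in BAT, with an iWAT-to-BAT log2 fold change of -2.16 (SE 0.30, adjusted p = 2.3e-05, edgeR). Acly, which supplies its acetyl-CoA, was at -3.05 (SE 0.33, adjusted p = 2.0e-06, edgeR). Me1, which supplies NADPH, was at -0.50 (SE 0.22, adjusted p = 0.0594, edgeR). In eWAT against BAT the same 5 genes were lower with and without the row length. There, with the length, 17.9% of all symbols with enough reads in both depots were lower and 60.5% higher. Genes of the list that are known to rise with T3 thus lay on both sides of BAT.

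**Figure D5:**
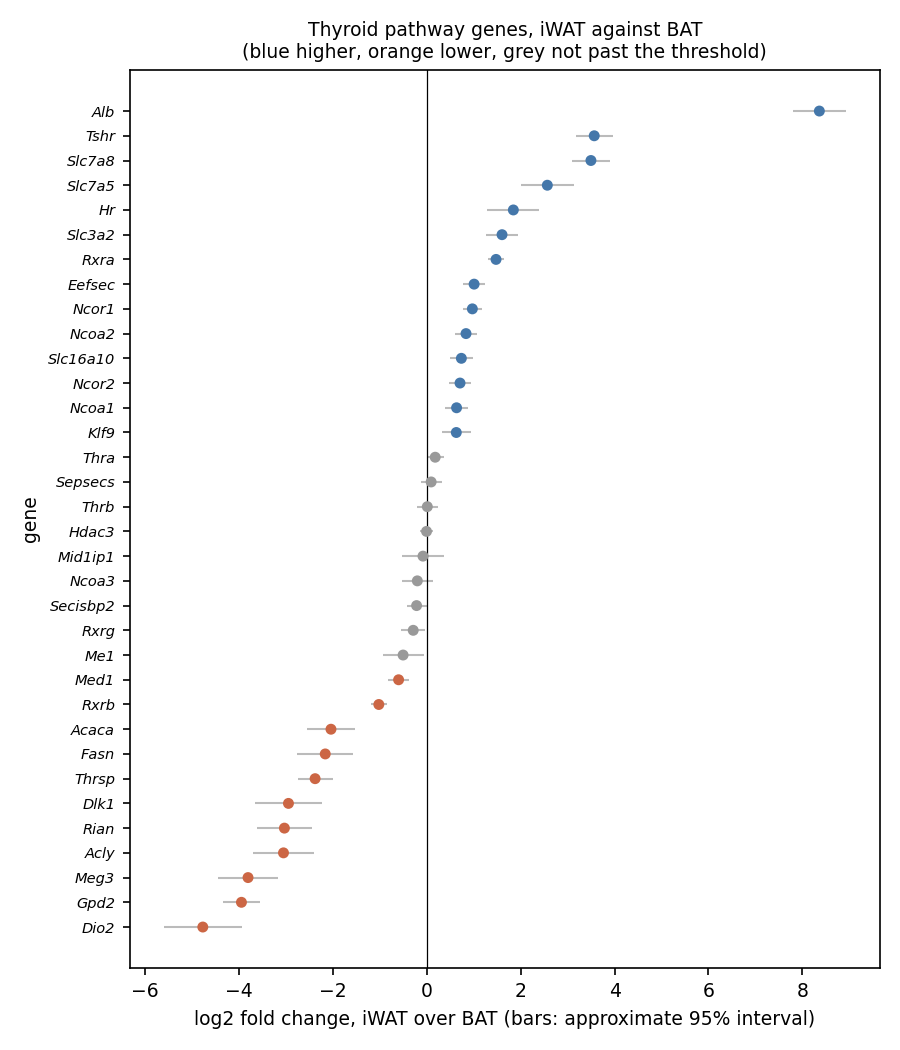
iWAT-to-BAT log2 fold changes with approximate 95% intervals for the 34 listed genes with enough reads, in blue where higher, orange where lower and grey where not past the threshold of an adjusted p of 0.05. Tshr is at 3.57, Slc16a10 at 0.74, Thrsp at -2.37 and Dio2 at -4.76. Alb, Slc7a5 and Dlk1 met the filter on low counts only through the depot where they are higher. No call is read from the colours or intervals of these genes.

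Single samples lay at the edge of their depot in many of these genes at once. In BAT of mouse 11, 7 of the 9 T3-responsive genes, Thrsp among them, had the lowest value of the 6 BAT samples, while Dio2 had its highest, 30.5 against 4.84 to 12.8. In eWAT of mouse 15, 8 of the 9, again with Thrsp, had the lowest value of the 6 eWAT samples. Genes outside that list were lowest there too, among them Tshr, Thra, Thrb, Rxra and Ncor1, while Slc16a10, Slc7a5, Slc7a8 and Slc3a2 were highest. The share of all genes with their lowest value in BAT of mouse 11 or eWAT of mouse 15 was not counted. The macrophage sum of eWAT of mouse 15 is given above, and its part in these values was not tested. The genes closest to Thrsp over the 18 samples, by the likeness used for Tshr, were Pygl, Dlst, Eno1, Sdha and Etfdh, with values of 0.19 for Pygl to 0.28 for Etfdh. Mean RPKM values of Pygl, the liver form of glycogen phosphorylase, were 18.7 (iWAT), 41.8 (eWAT) and 70.5 (BAT).

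The plasma carriers of thyroid hormone were read as a last group. Ttr had 1 read over the 18 samples together and Serpina7 none. Alb, which binds much of the hormone in plasma, had median RPKM values of 9.79 (iWAT), 2.63 (eWAT) and 0.0143 (BAT). It had 547 to 753 reads per iWAT sample, 79 to 176 per eWAT sample and 0 to 5 per BAT sample, 11 in all. It met the filter through white fat alone, so no test against BAT is given. The list of 5 hepatocyte markers (Alb, Apoa2, Ttr, Serpina1a, Cyp3a11) summed to 9.47 to 13.1 (iWAT), 1.79 to 3.91 (eWAT) and 0.480 to 1.18 (BAT). Of these 5, the number with reads was 3 (iWAT), 4 (eWAT) and 3 (BAT), and Cyp3a11 had none in any sample. In BAT most of the sum was Apoa2, at 0.418 to 1.08. Their part in the Alb values was not tested.

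Over all lists, without the members, 28 of the 45 genes reported had 10 or more reads in every iWAT and BAT sample. Of these 10 were higher, 9 lower and 9 not called in iWAT against BAT, near the shares of 35.7% higher and 31.0% lower over all such rows. In eWAT against BAT 28 had that many reads in both, 11 were higher and 8 lower, where 60.5% and 17.9% of all such symbols were, and 17 of these 19 kept their call without the row length. For iWAT against eWAT, with 30 such genes, 2 were higher and 10 lower, where 6.08% and 48.4% of all such symbols were, and 3 (Slc7a5, Klf9, Alb) kept their call without the row length.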

How the data were processed

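RNA was sequenced from 18 samples in 3 depots, 6 per depot. Per the labels and methods, RNA of high integrity went into libraries of the NEBNext Ultra RNA kit, and the Genomatix Genome Analyzer was used on reads mapped to mm9. The submitters' processing notes name cutadapt 1.16 and HISAT2 2.1.0. The authors deposited a read count per row, not normalized, and an RPKM, in which the count is divided by row length and by a sample total of reads (22929576 to 34512470). Rows were 53445 merged genes in iWAT and BAT and 189660 transcripts in eWAT. The annotation and the way of counting are not given in the sources used here. No molecular identifiers were used to collapse reads, and limits set by 3 reads cover counting error only.

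Counts were tested with edgeR 4.0.16 (glmQLFit, glmQLFTest) in R 4.3.3, with TMM factors, the sample total behind the RPKM for library size, and a filter that kept rows in which 6 or more samples had 10 or more reads. A Benjamini-Hochberg adjusted p under 0.05 over all rows tested was the threshold. The study states no test for these data. Of the comparisons, iWAT against BAT used those 12 samples and all merged rows. The comparisons with eWAT used all 18 samples and 1 row per symbol (45151), with an offset of library size, TMM factor from 27301 shared rows, and row length. Intervals are approximate. They were made by the normal distribution from a standard error that was derived from the log2 fold change and the F statistic of the test. They can be too narrow. For Thra in iWAT over BAT the interval, 0.0056 to 0.360, left out no change, while the unadjusted p was 0.063 (edgeR). The labels do not say whether the samples came from separate animals, so p-values measure only the spread between samples. DESeq2 1.42.0, limma 3.58.1, other scalings, filters and left-out samples served as alternatives. The script was run on simulated counts without row lengths or TMM factors from shared rows, so the offset used in the comparisons with eWAT was not tested in this way. Gene positions are those of the files (mm9), exon models are from GENCODE vM1, and promoters are from RefSeq (GRCm38.p6), where 4 of 5 members matched by symbol.

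The members and gene lists were chosen with earlier results of these data known. Besides the members, at most 4 genes per list were named with values, those with the highest mean of the 3 depot mean RPKM values. Of the listed genes, 1 is not reported here and was left out of the counts of lists. Counts and medians of lists cover genes with 10 or more reads in every sample of both depots compared, a limit set after the values were seen. Other genes named were chosen after their values were seen.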

Additional observations from a re-analysis of the deposited data

Results flagged for a closer look

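In 10 of 88 gene and depot combinations, 1 of the 6 samples stood apart from the rest of its depot by Dixon's test, where chance gives about 1 in 20, or 4.4. Genes of a depot share the same 6 samples, so the combinations are not independent, and no excess over chance is read from these counts. The members were not among them. In eWAT of mouse 15, the LAT subunits were high, with an RPKM of 4.17 for Slc7a5 (others 1.30 to 1.91), 16.3 for Slc7a8 (others 6.18 to 9.84) and 59.9 for Slc3a2 (others 36.0 to 42.4), and the receptors Thrb and Rxra were low, at 2.97 (others 4.99 to 5.83) and 20.7 (others 33.5 to 37.8). This is the sample with the macrophage sum of 1778. In BAT of mouse 11, Dio2 was at 30.5 (others 4.84 to 12.8) and Slc3a2 at 11.9 (others 4.34 to 6.31). The coregulators Ncoa2 and Ncor1 were low in iWAT of mouse 14, at 2.87 (others 4.19 to 4.84) and 8.00 (others 10.9 to 11.7). Med1 was high in eWAT of mouse 8, at 4.02 (others 3.17 to 3.32).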

How the results depend on the processing

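Across the alternatives run, the calls of Tshr and Thrsp against BAT kept their direction and their side of the threshold, as did that of Slc16a10 in eWAT against BAT. With single samples left out, the log2 fold change of Tshr was 3.45 to 3.67 in iWAT over BAT and 3.63 to 3.93 in eWAT over BAT, and that of Thrsp was -2.51 to -2.28 and -1.16 to -0.84. A minimum of 2-fold took away the calls of Slc16a10 in iWAT over BAT (0.74) and iWAT over eWAT (-0.39), left 6345, 9209 and 4571 rows called in iWAT against BAT, eWAT against BAT and iWAT against eWAT, and left 4 other listed genes in the last. Shared rows alone gave 3888 rows and 2 listed genes called in eWAT against BAT, and 737 rows and 1 listed gene in iWAT against eWAT, where fewer rows were tested. Without the row length, iWAT against eWAT had 4741 rows and 7 listed genes called, Tshr and Slc16a10 turned to 0.096 and 0.067, and Thrsp fell short of the threshold at -0.50. With the transcript of highest RPKM, 20 listed genes were called in iWAT against eWAT. Slc16a10 in iWAT over eWAT also missed the threshold with no filter on low counts (-0.39, adjusted p = 0.05 by edgeR) and without eWAT of mice 14 and 15 (-0.20). It was between -0.46 and -0.26 with single samples left out. The causes were not tested.

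Depots shared 4, 4 and 5 sample numbers. Deviations of samples with 1 number correlated by -0.0287 to 0.0825, -0.110 to 0.0243 and -0.302 to 0.182. Of these samples, 1, 0 and 1 correlated best with their own number. Correlations over so few samples cannot show whether equal numbers mark 1 animal. The main tests did not pair the samples. With the number as a replicate block, 11711, 13128 and 8448 rows were called (13337, 14299 and 9329 without it), and no call of a member changed. Tshr was at 3.64 in iWAT over BAT and -0.19 in iWAT over eWAT, and Slc16a10 in iWAT over eWAT at -0.38 (adjusted p = 0.0486, edgeR). Depth limits Dio1 and Dio3, which had at most 5 reads in any sample.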
